A study of Mus musculus with 2 samples.

Results

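Long transcribed contigs are unbroken stretches of RNA signal of 5000 nt or more on 1 strand of the genome. They were taken from the deposited contig table of adult mouse kidney, on the build mm9, as all rows on chromosomes 1 to 19 whose end minus start reached that length. There were 1486 of them among 789868 contigs on these chromosomes and 809659 rows in all. Length alone chose them, so their length is a description and not a result. Kidneys of C57BL/6J mice, an inbred laboratory strain, were collected at 8 weeks of age from littermates of both sexes and measured by strand-specific sequencing of polyadenylated RNA over 200 nt, in paired reads of 76 nt. The only group, adult kidney, has 2 biological replicates that carry 1 donor label, with 67252609 expected counts in replicate 1 and 87330097 in replicate 2. The contig and junction tables are single tables for the whole series, so no contig has a value per replicate, no group contrast exists and no test between conditions was possible.

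A gene is copied into RNA as exons, which are kept, and introns, which the spliceosome removes. Reads that cross the join of 2 exons in the finished RNA are recorded as splice junctions, and a junction's ends mark the ends of the intron it removed. Signal over a continuous stretch can come from a long exon, such as the last exon that holds the untranslated end of an mRNA, from RNA whose introns are still present, or from a long RNA that is never spliced. Polyadenylated RNA is mostly mature mRNA but also holds nuclear RNA that carries a tail before splicing is complete. The sources used here give no annotation or sequence of mm9, so contigs are described by position and by the junctions of the same strand and build, and no gene name is given.

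The tissue was checked in the gene tables, which are on mm10 and were not joined to the contigs. Slc34a1, the phosphate transporter of the proximal tubule, had 5821 TPM in replicate 1 and 4317 in replicate 2, and Umod, the uromodulin gene of the thick ascending limb, had 3204 and 1908 TPM. Aqp2 of the collecting duct had 631 and 490 TPM. Of the 6 genes of other tissues, Gfap of glia and Myh6 of heart stayed at 0.44 TPM or less, and Alb of liver was at 8.19 and 7.1 TPM. Ckm of skeletal muscle was at 0.99 and 185 TPM, Star of steroid-making cells such as the adrenal at 5 and 0.26 TPM, and the adrenal gene Cyp11b1 at 4.51 and 0.04 TPM. The part of these other tissues in the contigs was not tested.

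Long contigs were rare. The length rule itself gives them a larger share of the length than of the contigs. The deposited score was near a fixed multiple of length times level, so their share of it also carries the length. Long contigs made up 0.188% of the contigs and 3.48% of the summed contig length (9894146 of 284099146 nt). They also held 21.9% of the sum of column 9, a whole-number score of unstated meaning that was 26.3 to 27.1 times the product of length and level. These figures depend on where a contig is taken to end: with contigs 50 nt or less apart joined, 3269 reached the minimum, with 8.05% of the length and 34.7% of the column 9 sum. Their lengths had a median of 6039.5 nt and reached 24322 nt, and 82 of them were 10000 nt or longer. The level, a deposited value whose unit the sources used here do not state, had a median of 5.93 in long contigs (quartiles 2.75 and 13), against 2.56 in contigs of 2000 to 4999 nt and 0.108 in contigs under 200 nt. Level ran from 0.347 to 4410 among long contigs. Median level rose with length, with 0.256 at 500 to under 1000 nt and 0.613 at 1000 to under 2000 nt. It was 5.71 at 5000 to under 10000 nt. A higher level than in all contigs thus goes with length, and no length-independent comparison of level was made. The level cutoffs below were set against all contigs only, not against contigs of 2000 to 4999 nt. Levels of 1 or more were reached by 1394 of the 1486 (93.8%), against 12% of all contigs on these chromosomes. Levels of 10 or more were found in 466 (31.4%), against 2.03% of all contigs, and of 100 or more in 27 (1.82%), against 0.0777%. Of all contigs at 100 or more, 4.4% were long ones, against 0.188% of contigs of any level. Most of the highest levels still lay in shorter stretches.

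Column 8, a measure of unstated meaning, was 0 in all 1486 long contigs. Among the shorter contigs it was 0 in 26.8%, and its highest value was 0.58. Its value was 0 in 8.3% of contigs under 200 nt, in 80.2% of those of 500 to 999 nt and in 99.2% of those of 2000 to 4999 nt. The longest contig with a value above 0 had 4284 nt. The shortest long contig, of 5002 nt, had a level of 0.796, and the 4 of 5003 nt had levels of 1.53, 1.87, 2.65 and 164. The 3 contigs just under the minimum, all of 4999 nt, had levels of 3.43, 3.66 and 11.2. Column 8 was 0 in all of these, on both sides of the minimum.

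**Figure D1:**
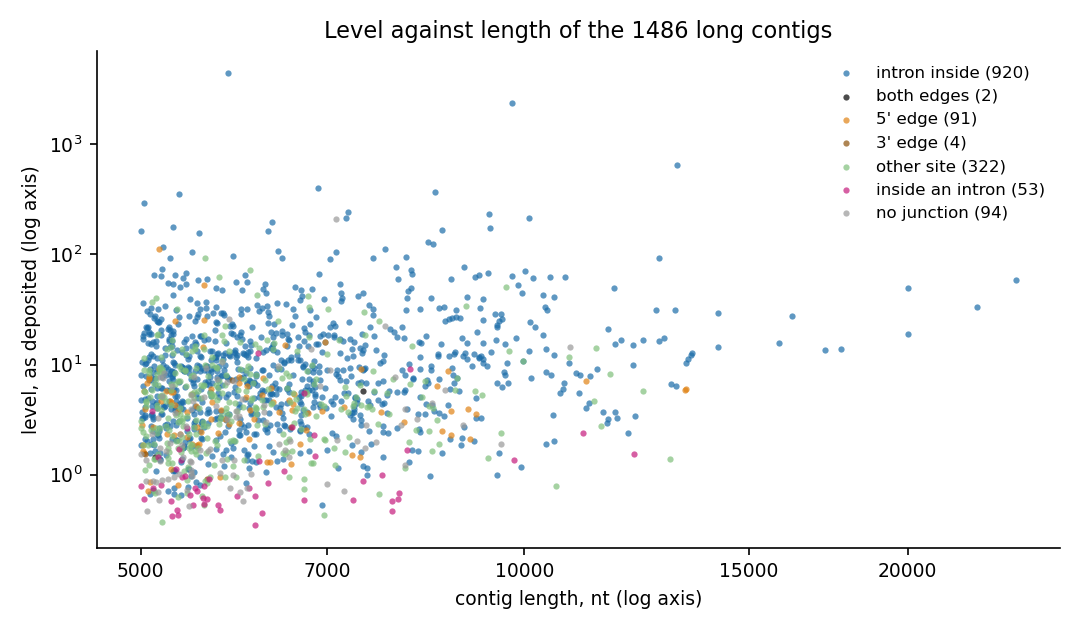
Level (as deposited, log axis) against length (nt, log axis), with 1 point for each of the 1486 long contigs and the colour giving its junction class. Most points lie near the length minimum and between levels of 1 and 100, contigs with an intron inside fill the upper part, and contigs wholly inside an intron lie mostly at the bottom.

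Long contigs were spread over all 19 chromosomes, with more on chromosomes that hold more expressed genes. Chromosome 11 had the most, with 149, followed by chromosome 2 with 132 and chromosome 1 with 109. Chromosome 18 had the fewest, with 27, then chromosome 14 with 29 and chromosome 12 with 39. Per 100 genes detected at 1 TPM or more in both replicates, chromosome 8 had 14.5 long contigs and chromosome 1 had 14.2, against 6.76 on chromosome 14 and 7.12 on chromosome 3. Over the 19 chromosomes the number of long contigs and the number of detected genes had a Pearson correlation of 0.931, given as a description. The points share the size of the chromosome. Of the 12680 genes detected on these chromosomes, 789 have an annotated exon of 5000 nt or more, a count from the annotation of GRCm38 that was not matched to single contigs.

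On the plus strand lay 727 long contigs (48.9%, exact Clopper-Pearson 95% interval 46.4% to 51.5%) and on the minus strand 759, against 50.7% on the plus strand among all contigs. The interval covers counting error only. Median levels were alike, at 5.87 on the plus strand and 5.97 on the minus strand. The strands differed more on single chromosomes. Chromosome 16 had 37 on the plus and 18 on the minus strand, chromosome 18 had 18 and 9, and chromosome 4 had 36 and 65. Although fewer in number, plus-strand contigs held 63.6% of the long contigs' column 9 sum, and the highest 3 values are on that strand.

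**Figure D2:**
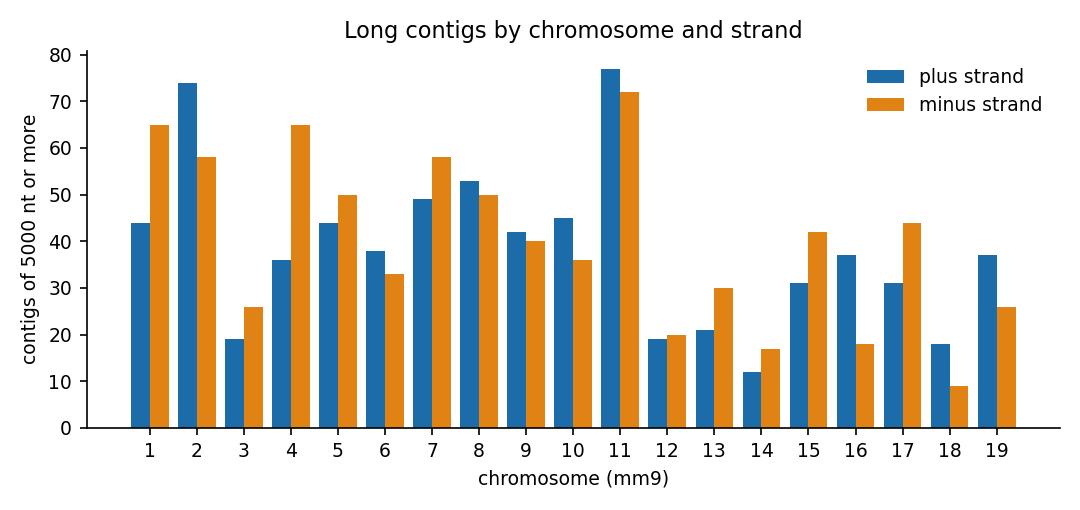
Number of long contigs on each chromosome of mm9, with plus-strand and minus-strand contigs as separate bars. Chromosome 11 has the most, 77 on the plus and 72 on the minus strand, and chromosome 18 the fewest, 18 and 9.

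The share of the column 9 sum in long contigs differed widely between chromosomes. Long contigs held 50.8% of the column 9 sum of chromosome 17, 37% on chromosome 11, 32.8% on chromosome 13 and 28.6% on chromosome 19, but 5.48% on chromosome 18 and 7.01% on chromosome 14. Their share of contig length varied less, between 1.56% on chromosome 14 and 4.62% on chromosome 11. On chromosome 17 a contig of 5854 nt (39979921 to 39985774, plus strand) had the highest level, 4410, and alone held 2.82% of the column 9 sum of all contigs. On chromosome 11 a contig of 9777 nt (54715633 to 54725409, plus strand) had a level of 2360 and held 2.52%. On chromosome 13 a contig of 13173 nt (55500871 to 55514043, plus strand) had a level of 642 and held 0.924%. Without its highest long contig, the share was 18.6% on chromosome 17, 17.9% on chromosome 11 and 13.4% on chromosome 13, but still 25.4% on chromosome 19. The 3 contigs named held 28.6% of the column 9 sum of all long contigs. Ranked by that value, 40 long contigs held 50% of it and the first 100 held 62.2%. Without the highest contig the long contigs' share of the whole sum was 19.7%, and without the highest 10 it was 15.2%.

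**Figure D3:**
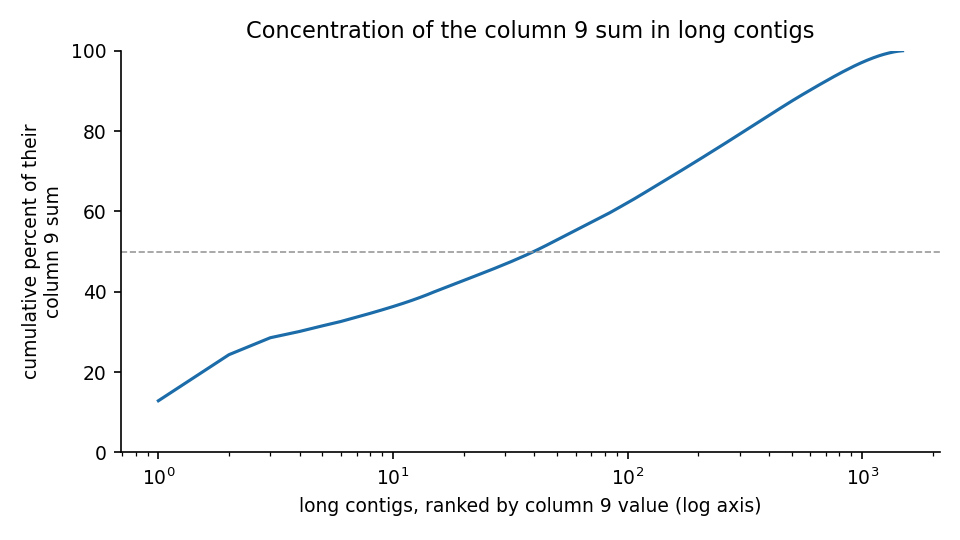
Cumulative percent of the long contigs' column 9 sum against their rank by that value (log axis). The curve starts at 12.9% with the first contig and reaches 50%, the dashed line, at 40 contigs.

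The third level, 642, was already far below the first pair. The fourth, on chromosome 7 (51837310 to 51844197, plus strand), had a level of 404 over 6888 nt, and the fifth, on chromosome 4 (49548642 to 49557146, minus strand), had 370 over 8505 nt. On chromosome 3 a pair of minus-strand neighbours, separated by 70 nt, ranked among the highest in column 9, with a level of 357 over 5359 nt (101380000 to 101385358) and of 213 over 10092 nt (101385429 to 101395520). A contig on chromosome 10 (59760388 to 59765418, plus strand) had a level of 291 over 5031 nt, and a contig on chromosome 19 (6535845 to 6543121, minus strand) had 241 over 7277 nt. On chromosome 9 a plus-strand contig of 9390 nt (45213278 to 45222667) had a level of 234. A second contig of chromosome 19 (44468602 to 44475851, minus strand) had 214 over 7250 nt. A contig of chromosome 11 (3819055 to 3828461, minus strand) came in by column 9 alone, with a level of 173 over 9407 nt. All 12 contigs that ranked among the first 10 by level or by column 9 had an intron inside. For the contig of chromosome 17 with a level of 4410 this rested on 46 junctions with 8528 counts. Junction names carry flags, described below, and none of these 46 had both at 1.

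Most long contigs ran across whole introns. A junction of 10 or more counts on the same strand, with a span of at most 200000 nt, had both ends inside the contig in 920 of the 1486 (61.9%, interval 59.4% to 64.4%). Of all contigs on these chromosomes 1.64% held such a junction, and of contigs of 2000 to 4999 nt 33.4% did. A longer stretch has more room for an intron, and no length-independent comparison was made. These 920 contigs held 64.2% of the length and 88.7% of the column 9 sum of the long contigs. The contig of chromosome 17 with a level of 4410 is among them and alone held 12.9% of that sum. Their median level was 8.68, against 4.25 for the 419 contigs with a splice site but no intron inside and 2.03 for contigs with no junction. With junctions of 2 or more counts, 80.9% had an intron inside. In 4 groups of nearly equal size, from low to high level, the share with an intron inside was 37%, 53.5%, 71.4% and 85.3%. A junction passes the count minimum more readily where the level is high.

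A splice site means either end of such a junction in the contig or within 20 nt of its edge. One was present in 1339 long contigs (90.1%, interval 88.5% to 91.6%). The share was 71.2% in contigs of 2000 to 4999 nt and 15.2% in all contigs. A longer stretch has more room for a splice site, and no length-independent comparison was made. Beside the 920 with an intron inside, 91 long contigs (6.12%) began at their 5' edge where a junction ended, as at a last exon. These 91 had no junction leaving at the 3' edge, but a junction leaving from within the contig was not excluded. The share of this class was near that in contigs of 2000 to 4999 nt, at 6.67%, against 2.71% of all contigs. The longest of the 91 lay on chromosome 16 (24979259 to 24992664, plus strand), with 13406 nt and a level of 6.02. Next came a contig of chromosome 4 (56879795 to 56893165, minus strand), with 13371 nt and a level of 5.88. Both edges met junctions, as at an internal exon, in 2 contigs, the longer on chromosome 12 (8012540 to 8020017, plus strand) with 7478 nt and a level of 5.69. A junction left at the 3' edge only, as at a first exon, in 4 contigs, the longest on chromosome 7 (53457001 to 53463563, minus strand) with 6563 nt and a level of 2.71. Edge arrangements of these last kinds were more frequent among short contigs, where 5.14% of those under 200 nt met junctions at both edges.

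A further 322 long contigs (21.7%) had a splice site at another place, with the partner end outside the contig. The share was higher in contigs of 2000 to 4999 nt, at 29.7%, and was 5.5% in all contigs. The longest of the 322 lay on chromosome 10 (85781629 to 85794647, plus strand), with 13019 nt and a level of 1.4. The longest contigs of chromosomes 3 and 18 were of the same kind. That of chromosome 3 (9426958 to 9439345, minus strand) had 12388 nt and a level of 5.73, and that of chromosome 18 (50241862 to 50253256, plus strand) had 11395 nt and a level of 14.2.

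Contigs that lay wholly inside an intron were few among the long ones, although they were the most common kind in the whole table. They made up 53 of the long contigs (3.57%, interval 2.68% to 4.64%), against 14.6% of contigs of 2000 to 4999 nt and 52.8% of all contigs. A longer contig fits less readily between the ends of a junction, so a lower share follows in part from the length rule. No length-independent comparison was made. The long contigs' share was 2.02% with junctions of 2 or more counts and 6.49% with contigs 50 nt or less apart joined. Their median level was 0.782, the lowest of the 7 classes, with a range of 0.347 to 12.7. The longest lay on chromosome 1 (74011747 to 74023934, minus strand), with 12188 nt and a level of 1.54. Of the 5 long contigs with the lowest levels, 3 were of this kind. They lay on chromosome 2 (27540856 to 27546997, plus strand, level 0.347), chromosome 12 (106096999 to 106102286, minus strand, level 0.418) and chromosome 10 (87004140 to 87009490, plus strand, level 0.429). The other 2 of the lowest levels, on chromosome 5 (115630581 to 115635775, minus strand, 0.373) and chromosome 4 (63085550 to 63092517, minus strand, 0.429), had a splice site without an intron inside.

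No junction of 10 or more counts on the same strand touched or spanned 94 long contigs (6.33%). The share was 14.2% in contigs of 2000 to 4999 nt and 32% in all contigs. The long contigs' share rested on the count minimum, at 1.88% with junctions of 2 or more counts and 15.1% with 50 or more. It was 1.22% of the contigs of 10000 nt or more. The longest of these lay on chromosome 6 (38636941 to 38647805, minus strand), with 10865 nt and a level of 14.5. Among the 466 long contigs at a level of 10 or more, 7 had no splice site, a group chosen after the values were seen. The highest of them, on chromosome 19 (5795561 to 5802671, minus strand), reached a level of 210 over 7111 nt with no junction of 10 or more counts. The next was on chromosome 6 (24900695 to 24906563, minus strand) at 26, followed by a contig of chromosome 9 (95459509 to 95467287, plus strand) at 22.5. Of all 147 long contigs without a splice site, 7 had a splice site of the opposite strand. Opposite-strand sites were present in 87 of the 920 contigs with an intron inside. They were also present in 21 of the 322 with a site at another place and in 5 of the 91 of the 5' edge class.

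**Figure D4:**
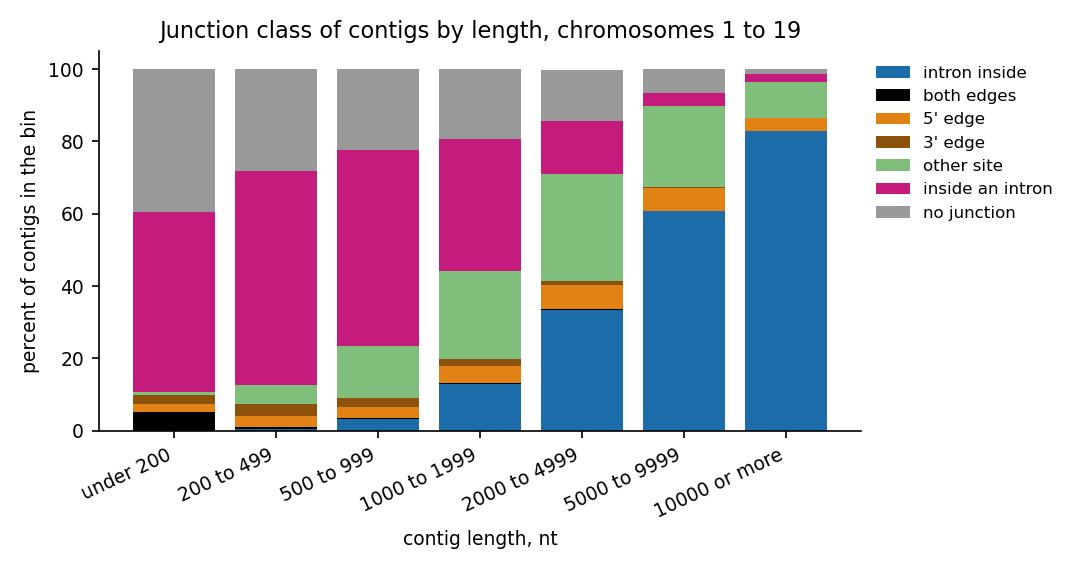
Percent of contigs in each junction class by contig length (nt), over chromosomes 1 to 19. Contigs with an intron inside make up 60.7% of those of 5000 to 9999 nt and 82.9% of those of 10000 nt or more, while contigs inside an intron make up 50% of those under 200 nt.

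In the 920 contigs that crossed introns, stretches between the ends of junctions filled much of the length. A position counted as intron if any junction inside the contig spanned it, so exons that some junctions skip are included. Together the introns inside covered 3241509 nt, which is 32.8% of the length of all long contigs. The same share was 5.03% in contigs of 1000 to under 2000 nt and 15% in those of 2000 to under 5000 nt. It was 30.8% in contigs of 5000 to under 10000 nt. More length gives more room for introns, and no length-independent comparison was made. Within the 920 contigs the median share was 53.2% (quartiles 28.7% and 71.4%), and 501 of the 920 (54.5%) lay mostly in introns, at over 50% of their length. The number of junctions inside had a median of 4 and reached 97. A single junction was found in 161 contigs and 10 or more in 159. The 5349 junctions inside had a median span of 443 nt, against 1334 nt for the other junctions used. A junction inside cannot span more than its contig. Their median count was 253, against 75 for the others. They were 3.84% of the 139249 junctions used and held 16.9% of the junction counts. Over these 920 contigs level and junction counts inside had a Spearman correlation of 0.703, a description of values from the same libraries.

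The longest introns that a contig covered without a break exceeded 9000 nt. On chromosome 10 a junction of 11 counts (77044673 to 77055590, plus strand) spanned 10918 nt inside a contig of level 6.65. The junctions inside that contig held 12171 counts in all, so this one was a small part of them. On chromosome 1 a junction of 973 counts (73988681 to 73998994, minus strand) spanned 10314 nt inside a contig of level 15.6. A second one of chromosome 1 (166373482 to 166383619, minus strand) had 18217 counts over 10138 nt inside a contig of level 27.3. Junctions of 9713 nt on chromosome 8 and 9129 nt on chromosome 17 had 12 and 126 counts.

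Of the 10 longest contigs, 9 lay mostly in introns, counted in the same way, and 1 was almost free of them. Of all 1486 long contigs, 501 lay mostly in introns. A longer contig has more room for introns, and no length-independent comparison was made. The longest, on chromosome 15 (66763870 to 66788191, minus strand), had 24322 nt and a level of 58.7. It held 18 junctions with 312052 counts, and introns covered 56.7% of it. The second, on chromosome 19 (5823697 to 5846362, minus strand), had 22666 nt and a level of 33.3, yet it held only 3 junctions with 295 counts, and introns covered 1.84%. Chromosome 16 followed with 20020 nt (4921895 to 4941914, plus strand), a level of 19, 16 junctions and 71.5% in introns. Chromosome 8 had a contig of 20019 nt (96862146 to 96882164, plus strand) with a level of 49.8, 31 junctions and 81.2% in introns. The next, on chromosome 2 (165237177 to 165254918, minus strand), had 17742 nt, a level of 13.7 and 82.8% in introns. A contig of chromosome 17 (26137460 to 26154680, minus strand) had 17221 nt, a level of 13.5 and 67.7% in introns. On chromosome 1 lay contigs of 16229 nt (166369394 to 166385622, minus strand, 84.8% in introns) and 15842 nt (73986035 to 74001876, minus strand, 70.5% in introns). A second contig of chromosome 2 (31333997 to 31348187, plus strand) had 14191 nt and 92.1% in introns, and the tenth, on chromosome 5 (24757636 to 24771816, plus strand), had 14181 nt and 85.5%.

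The longest contigs of the remaining chromosomes had between 9647 and 13449 nt. On chromosome 9 (66598396 to 66611844, plus strand) and chromosome 10 (77044423 to 77057451, plus strand) introns covered 88.1% and 90.3%. On chromosomes 6 (90412367 to 90425228, plus strand) and 7 (91732088 to 91744261, minus strand) they covered 80.2% and 79.2%. Smaller shares were found on chromosome 14 (65431474 to 65441120, minus strand, 37.3%), chromosome 11 (60040159 to 60052905, minus strand, 20.5%) and chromosome 12 (106001280 to 106011677, minus strand, 11.7%). The share on chromosome 10 includes the junction of 11 counts that spanned 10918 nt. The share on chromosome 12 rested on 1 junction of 58 counts. That junction did not have both flags at 1, and with such junctions alone the share was 0%.

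The 2 contigs of highest level differed in how their junctions were flagged. Each junction name carries flags A and C, each 0 or 1, whose meaning the sources used here do not give. Of the junctions inside long contigs 72.9% had both flags at 1, against 88.3% of all junctions used, but these held 98.4% of the counts inside long contigs. The contig of chromosome 11 with a level of 2360 held 54 junctions with 390807 counts, of which 6 had both flags at 1 and held 387470 counts. The contig of chromosome 13 held 97 junctions with 1178136 counts, of which 11 with both flags held 1170582. The contig of chromosome 17 with a level of 4410 held 46 junctions with 8528 counts, and none of these had both flags at 1. With junctions of both flags alone, that contig had no junction, 870 of the 1486 (58.5%) had an intron inside, and introns covered 30.2% of the long contigs' length.

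Counts named R1 and R2 were given for each junction, and no source used here ties them to a replicate. R1 held 47% of the junction counts inside long contigs, against 46% of those of all junctions used. Among the 537 long contigs with 1000 or more junction counts inside, the R1 share had a median of 47.2%, with 39% at the 5th and 54.7% at the 95th percentile. The extremes, chosen after the values were seen, lay well outside that band. A contig of chromosome 12 (114656745 to 114663515, minus strand) had 334 R1 and 1970 R2 counts, an R1 share of 14.5%. The contig of highest level on chromosome 17 had 1573 R1 and 6955 R2 counts (18.4%). A contig of chromosome 15 (35862204 to 35868010, minus strand) had 10359 R1 and 31246 R2 counts (24.9%). At the other end were contigs of chromosome 2 (167270246 to 167277090, plus strand), with 1544 R1 and 648 R2 counts (70.4%), and of chromosome 13 (73809756 to 73815693, minus strand), with 19081 R1 and 9793 R2 counts (66.1%). These shares describe the junction counts of a pair of measurements and are no test of a difference.

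**Figure D5:**
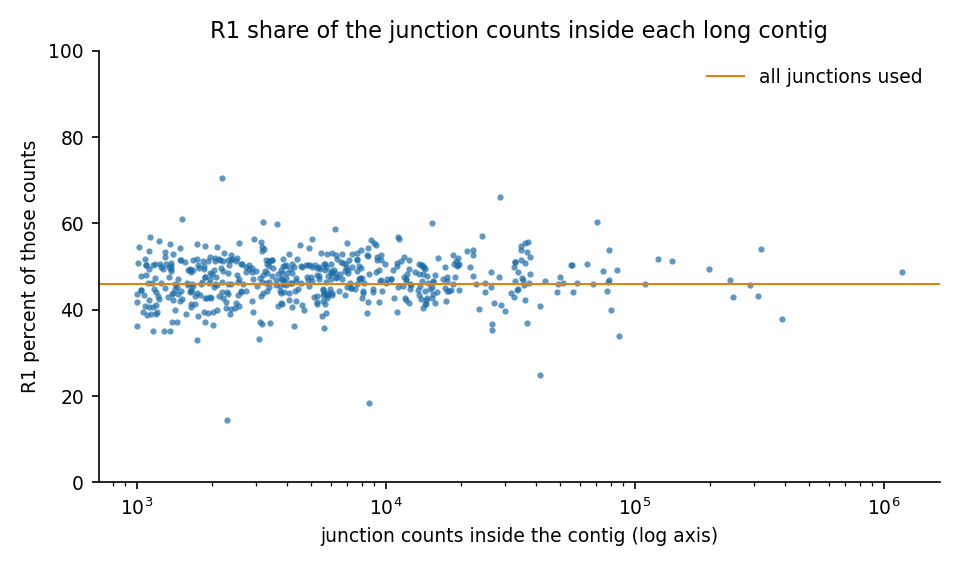
R1 percent of the junction counts inside each of the 537 long contigs with 1000 or more such counts, against those counts (log axis), with the share over all junctions used as a line at 46%. Most contigs lie between 39% and 54.7%, with 3 below 25% and 1 above 70%.

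Many long contigs ended at a short break, with shares near those of contigs of 2000 to 4999 nt. A neighbouring contig of the same strand lay within 100 nt of 1029 long contigs (69.2%), against 71.4% of contigs of 2000 to 4999 nt and 56.9% of all contigs. Such neighbours lay on both sides of 316 (21.3%), against 21.9% and 12.1% of the same groups. The smallest gap between contigs of 1 strand in the table was 11 nt. The median gap to the nearest neighbour was 39 nt for long contigs and 52 nt for all contigs, and 49 long contigs had none within 1000 nt. In 25 cases both neighbours were long, with a median gap of 24 nt. The longest such stretch joined the longest contig, on chromosome 15, to a contig of 13396 nt (66788214 to 66801609) across 22 nt, for 37740 nt in all, with levels of 58.7 and 10.3 on the 2 sides. On chromosome 8 a chain of 3 long contigs (96853848 to 96891447, plus strand) had levels of 16, 49.8 and 32.9 across gaps of 24 and 53 nt. In the 25 pairs the higher level was 2.14 times the lower at the median.

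The level on the opposite strand was low over most long contigs, and also over most contigs of all lengths. An opposite-strand contig overlapped 598 of the long contigs (40.2%), against 26.8% of contigs of 2000 to 4999 nt and 8.53% of all contigs, and a longer stretch has more room for an overlap. The overlap covered more than 50% of the length in 53 (3.57%), against 4.06% and 5.59% of the same groups. Averaged over the length of the long contig, the opposite level was above 10% of its own level in 97 (6.53%), against 7.18% and 6.8%. It was above the contig's own level in 22 (1.48%), against 2.45% and 3.85%. The largest ratio of opposite to own level was on chromosome 19 (29092828 to 29101288, plus strand), where a long contig of level 1.63 was covered over 93.6% of its 8461 nt by opposite contigs whose level averaged 17.2. A contig of chromosome 9 (107461872 to 107469401, minus strand), of level 1.14, faced an opposite average of 10.6.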

How the data were processed

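Kidney RNA of 2 libraries of 1 group was measured. Per the file headers and text records, the deposited gene tables are on mm10 with annotation M4 and give an expected count per gene and TPM. They were used only for library totals, for 12 tissue genes (1 further gene is not reported here) and for the number of detected genes (1 TPM or more in both libraries). Symbols, chromosomes and exon lengths came from GENCODE M21 on GRCm38. The deposited contig table, on mm9 as its file header name gives it, holds a signal level per contig, already scaled by the authors in a way that no source used here states. It also holds a score between 0 and 0.58 (column 8) and a second score in whole numbers (column 9), both as deposited. Column 9 was 26.3 to 27.1 times the product of length and level, a relation found in the values and not stated by any source used here. The deposited junction table, also on mm9, gives a count per junction that equals R1 plus R2 as deposited, without normalization. No source used here names the contig caller or the aligner.

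Contig length was end minus start, and positions are given counted from 1. Junctions of 10 or more counts and a span of up to 200000 nt (139249 of 478633 on chromosomes 1 to 19) were set against contigs of the same strand. A contig was put in the first class that fitted: both ends of a junction inside it, junctions at both edges (within 20 nt), at the 5' edge, at the 3' edge, a site elsewhere, the whole contig between the ends of a junction, or no junction. Overlaps were computed with Python 3.11.15, numpy 2.4.6 and pandas 2.3.3, intervals with scipy 1.17.1, and the classing was tested on simulated contigs of known class. Intervals are exact Clopper-Pearson at 95% and cover counting error only, and contigs that share a gene are not independent. No test was made between contigs, and p-values are absent because each contig has 1 value for the series. Named contigs were the 10 longest, the 10 of highest level and of highest column 9 value, the 5 of lowest level, the longest of each class and chromosome, and 3 on either side of the minimum, with ties in length. The 5 highest values of column 8 named none, since all were 0. Members, classes and rules were chosen with earlier results of these data known. Alternatives changed the length minimum, the joining of neighbours, the column 8 limit, the chromosomes, the summary of level and the junction filters.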

Additional observations from a re-analysis of the deposited data

Results flagged for a closer look

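Contigs of 5000 nt or more outside chromosomes 1 to 19 were not part of the comparisons. Chromosome X had 18 among 19750 contigs, with levels of 0.538 to 52.6 and a longest one of 7635 nt. The mitochondrial chromosome had 2 among 4 contigs, with levels of 1890 and 6730 and a longest one of 9288 nt. Both were flagged only as signal in rows the report did not use.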

How the results depend on the processing

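Of 82 values recomputed under 14 settings, 39 stayed within the 95% interval of the reported value (for the number of contigs, within 1.5 times) and 43 moved. A share of summed length or of column 9 has an interval narrower than its printed digits, so any change counts as moved. With a minimum of 4000 nt there were 2878 long contigs with 5.66% of contig length, 29.7% of column 9, a median level of 5.36, 54.7% with a junction inside, 86.8% with a splice site, 4.69% inside an intron and 8.48% with no junction. With 10000 nt there were 82, with 0.355%, 3.13%, 11.9, 82.9%, 96.3%, 2.44% and 1.22% for the same quantities, and 45.1% on the plus strand. Joining contigs 50 nt or less apart gave 3269, with 8.05%, 34.7%, 4.28, 64.7%, 88.1% and 6.49% up to the share inside an intron, and column 8 was 0.01 or less in 63.2%, since a joined contig takes the highest value of its parts. Keeping contigs with column 8 of 0.05 or less gave shares of 4.7% of length and 22.1% of column 9, and adding chromosome X gave 3.45% and 21.7%. Without the contig of the highest column 9 value, the share of column 9 was 19.7%. The length-weighted mean level was 20.3. With junctions of 2 or more counts, 80.9% had a junction inside, 96.1% a splice site, 2.02% lay inside an intron and 1.88% had no junction. With 50 or more counts, 57% had a junction inside, 80.7% a splice site and 15.1% no junction. A span limit of 50000 nt left 2.56% inside an intron and 7.74% with no junction. With both flags at 1, chosen after seeing the data, 58.5% had a junction inside, 87.1% a splice site and 9.02% no junction. The recomputed shares with no junction were also added after seeing the data. The causes of these moves were not tested beyond the construction of each setting. Leaving out a replicate was not run, because the contig and junction tables are not separated by replicate. No paired analysis was possible because there is 1 group. Depth limits the rare junctions: at low levels an intron inside a contig may have fewer than 10 counts.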
